A study of Mus musculus with 6 samples.

Results

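The platelet-derived growth factor (PDGF) system and 3 surface markers of cancer-associated fibroblasts were followed in 6 MC38 tumors. The genes were taken from the table by symbol, and the choice of symbols was made with earlier results of these data known: the ligand genes Pdgfa, Pdgfb, Pdgfc and Pdgfd, the receptor genes Pdgfra and Pdgfrb, and the fibroblast markers Fap, Thy1 and Pdpn. All 9 are among the 33965 genes of the table, each on 1 row, and all 9 passed the filter on low counts that left 19602 genes for testing. The tumors were grown from MC38 cells, a line derived from a colon carcinoma of the C57BL/6 mouse, under the skin of mice of that strain that were bought as 6-week-old females. The PBS group is 3 tumors of mice given phosphate-buffered saline. The GB2 group is 3 tumors of mice given GB2 by vein, a prodrug made of artesunate and the STING agonist MSA-2, held together by a disulfide that glutathione can cut. Artesunate is used here as an inhibitor of TREM2, a receptor of tumor macrophages. The dose recorded for the MC38 model is 10 mg/kg, with none given for the sequenced tumors on their own. No transgene or engineered deletion is recorded for either group, and all 6 tumors come from 1 cell line in 1 mouse strain.

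PDGFs are dimeric growth factors that act mainly on mesenchymal cells. PDGF-A and PDGF-C signal through the alpha receptor, PDGF-B binds both receptors and is the main ligand of the beta receptor, and PDGF-D signals mainly through the beta receptor. Endothelial cells use PDGF-B to recruit pericytes, which carry the beta receptor, to vessel walls. In tumors, fibroblasts carry both receptors and answer PDGF by dividing, migrating and depositing matrix. FAP (a surface protease), THY1 (a glycosylphosphatidylinositol-anchored glycoprotein) and podoplanin (a mucin-like membrane protein encoded by Pdpn) are widely used to mark these fibroblasts. None of the 3 is confined to fibroblasts in the mouse: Thy1 is also a T cell gene, and Pdpn is also a gene of lymphatic endothelium and of some macrophages.

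The libraries were poly-A selected, stranded and paired-end. Total counts ran from 64764405 to 69878156 in PBS tumors and from 81210553 to 83690056 in GB2 tumors, so each GB2 library was the larger, and levels are therefore given in CPM, that is as counts scaled to the library size and its TMM factor. Low counts pile up at 4, with 7017 values of 4 against 2984 of 3 and 2017 of 5, so a deposited count may stand for less than 1 read pair. The lowest count of any of the 9 genes was 19, for Fap in PBS tumor 2, which would be about 5 read pairs if 1 pair gave 4 counts. Colon epithelial markers were low in tissue labelled as MC38 tumor: Cdx2, an intestinal transcription factor, Krt19 and Cldn7 were below the filter, and the CPM of the 10 epithelial genes together was 6.85 to 8.22 in PBS and 8.69 to 14.2 in GB2 tumors. The labels do not say whether the tumors of a group came from separate mice, so the p-values measure only the spread between these samples.

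Among the 9 genes, 7 (Pdgfb, Pdgfc, both receptors, Fap, Thy1 and Pdpn) were higher in each GB2 tumor than in each PBS tumor, with fitted folds from 2.15 for Pdgfrb to 4.08 for Fap. Pdgfa and Pdgfd overlapped between the groups. By edgeR with adjustment over all genes tested, with a threshold of 0.05 on the adjusted p and of 2 on the fold, no gene was called, that is 0 of 9 here and 0% of the 19602. The smallest adjusted p of any gene was 0.166, although 1360 genes had an unadjusted p under 0.05. At an unadjusted p under 0.05 and a fold of at least 2, edgeR placed 7 of the 9 genes as higher, against 3.74% of all genes, and 0 as lower, against 0.918%. Since the 9 genes were chosen with earlier results known, these shares are a description. Groups without overlap in the higher direction were found in 7 of 9 genes, against 8.61% of all genes. DESeq2 called 6 of 9 higher at an adjusted p under 0.05, against 1.8% of all genes. Pdgfrb, with an adjusted p of 0.164 in DESeq2, was the gene outside that call among the 7. The median log2 fold change was 1.40 over the 9 genes and -0.016 over all genes.

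**Figure D1:**
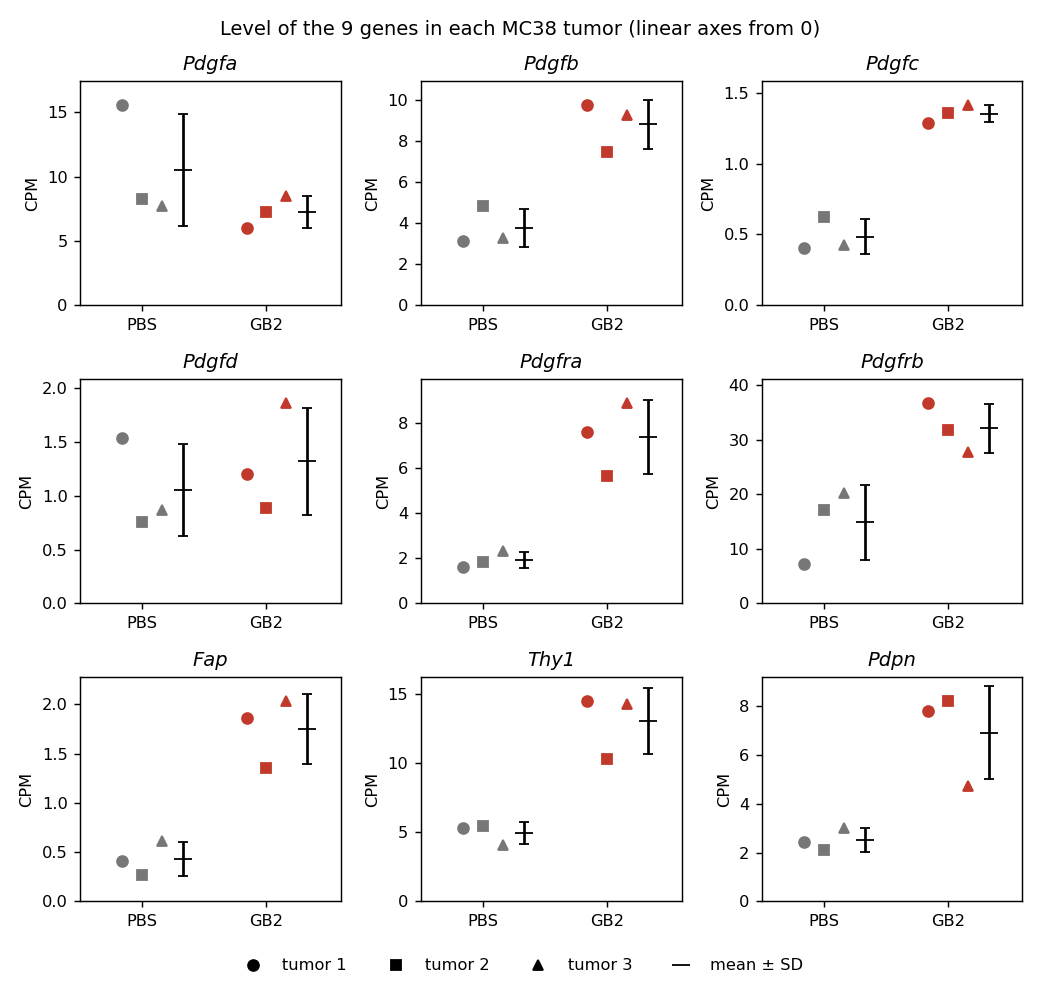
CPM of each of the 9 genes (linear y axes from 0) in the 3 PBS (grey) and 3 GB2 (red) MC38 tumors, with the symbol giving the tumor number and the black bar the mean ± SD. The groups are apart in 7 panels and overlap in those of Pdgfa and Pdgfd.

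Among the ligands, Pdgfb (ENSMUSG00000000489, chromosome 15, 79880075 to 79899178, minus strand, in the coordinates of the deposited table) was at 3.15, 4.81 and 3.30 CPM in PBS tumors 1, 2 and 3 and at 9.73, 7.47 and 9.23 CPM in GB2 tumors 1, 2 and 3. The lowest GB2 tumor, number 2, was 1.55-fold above the highest PBS tumor, which also had number 2. GB2 exceeded PBS tumors by a log2 fold change of 1.23 ± 0.28 (SE), with an adjusted p of 0.269 by edgeR and 0.00169 by DESeq2. In bulk tissue, more cells of a type and more RNA per cell cannot be told apart, here or for any gene that follows.

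Pdgfc (ENSMUSG00000028019, chromosome 3, 80943723 to 81121347, plus strand), whose product is secreted as a latent dimer and activated by proteolysis, was measured at a far lower level. Its CPM was 0.406, 0.624 and 0.424 in PBS tumors and 1.29, 1.36 and 1.41 in GB2 tumors, from 24 to 44 counts and 108 to 120 counts. The 3 GB2 values lay close together and all above the PBS values. In the edgeR fit its log2 fold change was 1.48 ± 0.37 (SE), with an adjusted p of 0.318 by edgeR and 0.0198 by DESeq2.

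Pdgfa (ENSMUSG00000025856, chromosome 5, 138961769 to 138983125, minus strand) was the one gene of the 9 with a negative estimate. It stood at 15.6, 8.30 and 7.74 CPM in PBS tumors and at 6.03, 7.29 and 8.48 CPM in GB2 tumors. PBS tumor 1 was high and the other 5 tumors shared one range. Its log2 fold change of -0.54 ± 0.33 (SE) had an adjusted p of 0.762 by edgeR, and it was -0.13 without PBS tumor 1.

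Pdgfd (ENSMUSG00000032006, chromosome 9, 6168584 to 6378845, plus strand), also made as a latent ligand, was at 1.54, 0.752 and 0.863 CPM in PBS and at 1.20, 0.890 and 1.86 CPM in GB2 tumors. The groups overlapped, with 1 high tumor in each. The log2 fold change was 0.33 ± 0.45 (SE), adjusted p 0.874 by edgeR, and -0.0029 without GB2 tumor 3. An exact permutation test of the 6 tumors, two-sided, gave 0.3 for Pdgfa, 0.5 for Pdgfd and 0.1 for each of the other 7 genes, and 0.1 is the smallest p that 3 tumors against 3 allow.

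The alpha receptor gene Pdgfra (ENSMUSG00000029231, chromosome 5, 75312953 to 75358876, plus strand), a marker of fibroblasts and mesenchymal progenitors, was at 1.62, 1.86 and 2.33 CPM in PBS tumors and at 7.59, 5.64 and 8.89 CPM in GB2 tumors. The lowest GB2 tumor was well above the highest PBS tumor. With a log2 fold change of 1.93 ± 0.30 (SE) it had the smallest unadjusted p of the 9 genes, 0.000272, and an adjusted p of 0.186 by edgeR and 3.7e-07 by DESeq2.

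The beta receptor gene Pdgfrb (ENSMUSG00000024620, chromosome 18, plus strand), carried by pericytes and fibroblasts, was the most abundant of the 9 in CPM in 5 of the 6 tumors. It read 7.17, 17.2 and 20.3 CPM in PBS tumors and 36.7, 31.8 and 27.8 CPM in GB2 tumors. PBS tumor 1 was far below its group, and the groups did not overlap. Pdgfrb had a log2 fold change of 1.11 ± 0.37 (SE), adjusted p 0.561 by edgeR, and one of 0.79, under 2-fold, without PBS tumor 1. The level of Pdgfrb was lowest in the PBS tumor in which Pdgfa was highest.

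**Figure D2:**
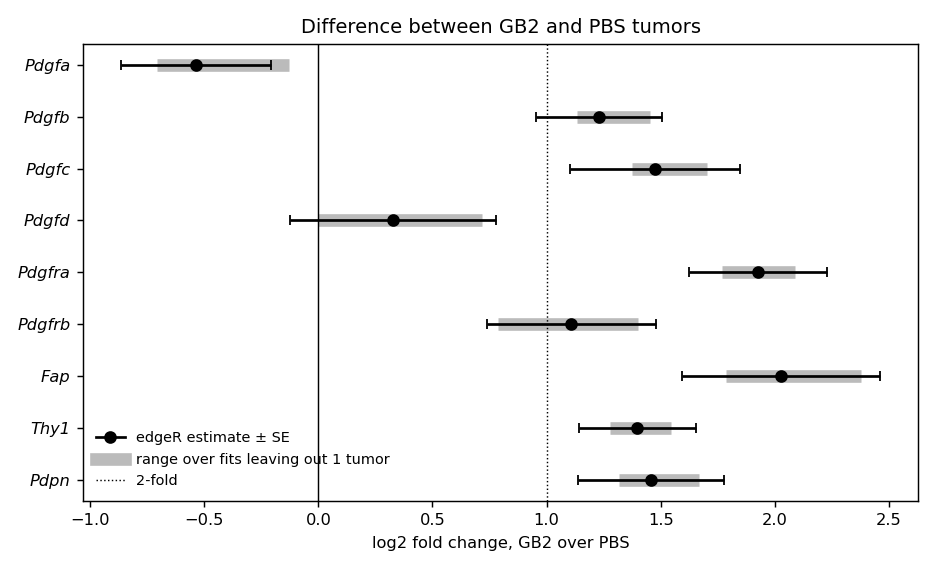
Log2 fold change of GB2 over PBS tumors for each of the 9 genes (x axis), with the edgeR estimate ± SE (points and bars, n = 3 tumors per group) and the range of the estimates when 1 tumor is left out (grey). The grey ranges of Pdgfb, Pdgfc, Pdgfra, Fap, Thy1 and Pdpn lie beyond the dotted 2-fold line, that of Pdgfrb crosses it, and that of Pdgfd reaches 0.

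Of the fibroblast surface markers, Fap (ENSMUSG00000000392, chromosome 2, 62331287 to 62404419, minus strand) had the widest difference. Its CPM was 0.406, 0.270 and 0.608 in PBS tumors and 1.86, 1.36 and 2.04 in GB2 tumors, from 19 to 43 counts and 113 to 173 counts. The groups did not overlap, and the PBS counts are few. Fap had a log2 fold change of 2.03 ± 0.44 (SE), with an adjusted p of 0.248 by edgeR and 0.00249 by DESeq2.

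Thy1 (ENSMUSG00000032011, chromosome 9, 43954681 to 43959876, plus strand) was at 5.33, 5.45 and 4.05 CPM in PBS tumors and at 14.5, 10.3 and 14.3 CPM in GB2 tumors. Tumor 2 was the low one of the GB2 group and still above each PBS tumor. For Thy1 the log2 fold change was 1.40 ± 0.25 (SE), the smallest error of the 9 genes, with an adjusted p of 0.193 by edgeR and 3.4e-05 by DESeq2.

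Pdpn (ENSMUSG00000028583, chromosome 4, 142994001 to 143026134, minus strand) was at 2.43, 2.09 and 3.03 CPM in PBS tumors and at 7.79, 8.21 and 4.74 CPM in GB2 tumors. Here GB2 tumor 3, not tumor 2, was the low one, at 1.56-fold above the highest PBS tumor. The log2 fold change was 1.46 ± 0.32 (SE), with an adjusted p of 0.262 by edgeR and 0.00146 by DESeq2.

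Levels of different genes were compared per transcript length, in FPKM (mean ± SD, n = 3 tumors a group). In PBS tumors Pdgfa led with 3.07 ± 1.03 FPKM, followed by Pdgfrb at 2.58 ± 1.30, Thy1 at 1.52 ± 0.219, Pdpn at 1.28 ± 0.286 and Pdgfb at 0.839 ± 0.240. Pdgfd at 0.302 ± 0.0999 FPKM, Pdgfra at 0.181 ± 0.0440, Pdgfc at 0.0884 ± 0.0253 and Fap at 0.0697 ± 0.0308 came last. Neighbours from Pdgfa down to Pdpn, and Pdgfc with Fap, differed by less than the larger of their SDs.

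In GB2 tumors the order was led by the beta receptor, Thy1 and Pdpn. Pdgfrb stood at 5.75 ± 0.838 FPKM, Thy1 at 4.27 ± 0.862 and Pdpn at 3.72 ± 0.983, and then came Pdgfa at 2.28 ± 0.391 and Pdgfb at 2.08 ± 0.323. Pdgfra at 0.721 ± 0.173 FPKM, Pdgfd at 0.408 ± 0.161, Fap at 0.301 ± 0.0679 and Pdgfc at 0.259 ± 0.0130 followed. Thy1 with Pdpn, Pdgfa with Pdgfb, Pdgfd with Fap and Fap with Pdgfc differed by less than the larger SD.

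**Figure D3:**
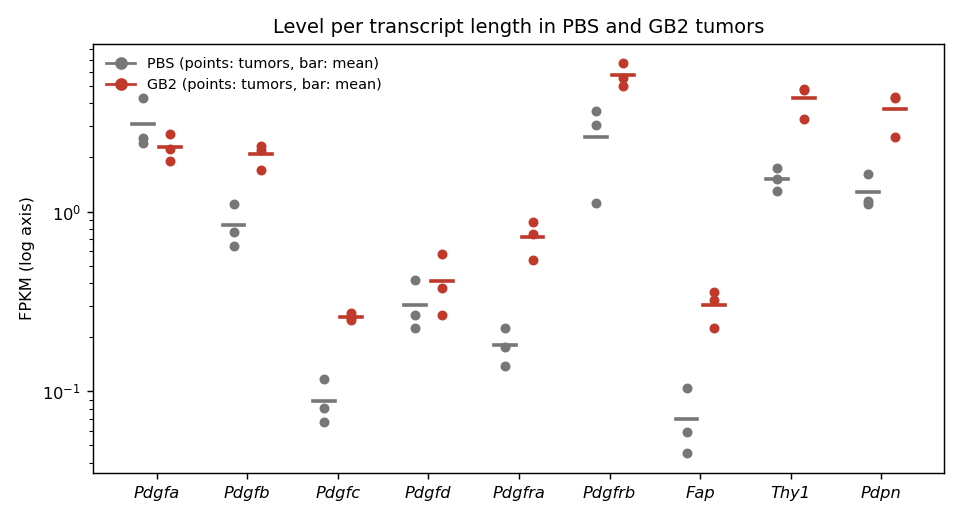
FPKM (log y axis) of the 9 genes in each PBS (grey) and GB2 (red) tumor, with the group mean as a bar. Pdgfa leads the PBS means at 3.07 FPKM and Pdgfrb the GB2 means at 5.75 FPKM, while Fap and Pdgfc are the lowest pair in both groups.

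The 2 most abundant ligand genes were read against each other. The ratio of Pdgfa to Pdgfb in FPKM was 6.61, 2.30 and 3.15 in PBS tumors and 0.824, 1.30 and 1.22 in GB2 tumors. The ranges did not overlap, and PBS tumor 1 was the high one. This pair was chosen after its values were seen, so it was not tested.

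The balance of the receptors was tested as log2 CPM of Pdgfra minus log2 CPM of Pdgfrb. It was -2.12, -3.19 and -3.11 in PBS tumors and -2.27, -2.49 and -1.64 in GB2 tumors. The ranges overlapped through PBS tumor 1, in which Pdgfrb was low. The group difference of 0.67 had an exact permutation p of 0.3 (two-sided, n = 3 tumors a group, where 0.1 is the smallest p possible). Leaving out PBS tumor 1 gave 1.02, leaving out GB2 tumor 3 gave 0.43, and the difference was 0.27 on the scale of log2(FPKM + 0.1). On log2 FPKM with no pseudocount, an alternative chosen after the data were seen, the difference was 0.69.

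For the ligands, log2 CPM of Pdgfc minus log2 CPM of Pdgfb was -2.87, -2.89 and -2.88 in PBS tumors and -2.89, -2.44 and -2.69 in GB2 tumors. The values of the 3 PBS tumors and of GB2 tumor 1 lay close together. With Pdgfc at 24 to 44 counts in PBS tumors, this closeness cannot show a fixed ratio. The group difference of 0.21 had an exact permutation p of 0.4 (two-sided, n = 3 tumors a group), and its sign turned on the scale of log2(FPKM + 0.1), where it was -0.29. This pseudocount is larger than the mean Pdgfc level in PBS tumors, and on log2 FPKM with no pseudocount, chosen after the data were seen, the difference was 0.25. It was 0.093 without GB2 tumor 2, 0.32 without GB2 tumor 1 and 0.063 with counts divided by 4.

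**Figure D4:**
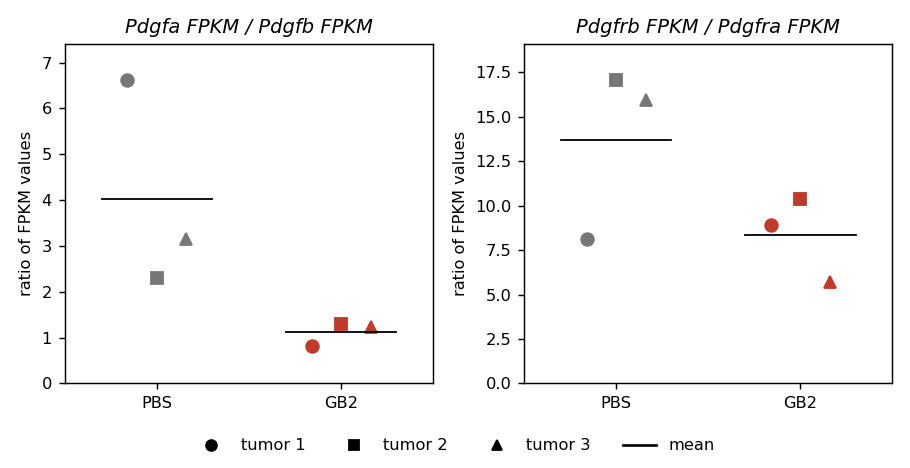
Ratio of Pdgfa to Pdgfb (left) and of Pdgfrb to Pdgfra (right) in FPKM in each tumor (linear y axes from 0, symbols give the tumor number, lines the group means). The left ratio is 2.30 or more in PBS tumors and 1.30 or less in GB2 tumors, and the right ratios overlap.

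The 9 genes were set beside other genes of the pathway. Of 9 genes for ligand processing and co-receptors, 8 had positive estimates, with a median log2 fold change of 0.88 and 0 called by edgeR. As higher, 3 passed the unadjusted p and fold limits, against 3.74% of all genes. These were Pdgfrl, which encodes a receptor-like protein, with 1.9, Pcsk5, a proprotein convertase, with 1.50, and Plau, urokinase, which can activate PDGF-D, with 1.16. Plat, tissue plasminogen activator and an activator of PDGF-C, had a log2 fold change of 0.92 and groups without overlap. Nrp1, a co-receptor, had 0.88, while Furin, the convertase that cleaves the pro-forms of PDGF-A and PDGF-B, had 0.34.

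Genes for the intracellular part of the pathway were read next. Of 23 genes for receptor signal transduction, 0 passed the unadjusted p and fold limits, against 3.74% of all genes as higher and 0.918% as lower. In 1 gene each GB2 tumor was above each PBS tumor, against 8.61% of all genes. For a list of 23 genes these counts are near the shares of all genes, and they are a description. The median log2 fold change was 0.11. The adaptor gene Nck2 had the most negative estimate, -0.53, and Cbl, a ubiquitin ligase that takes activated receptors out of service, the most positive, 0.47. These are transcript levels, and phosphorylation was not measured.

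Genes of the fibroblast matrix, a list chosen with earlier results known, were mostly higher in GB2 tumors. Of 10 genes, 10 had positive estimates, with a median log2 fold change of 1.45. The unadjusted p and fold limits were passed by 8 as higher, against 3.74% of all genes. The same number had groups without overlap, against 8.61%, and DESeq2 called 8 higher, against 1.8%. By edgeR 0 were called, and these counts are a description. Log2 fold changes were 2.01 for Postn (periostin), 1.73 for Col6a3, 1.64 for the fibrillar collagen gene Col3a1, 1.55 for the proteoglycan gene Dcn and 1.45 for Col1a1. Fn1 (fibronectin) with 0.55 and Sparc with 0.53 did not pass. Sparc, a matrix protein that binds PDGF, was the most abundant gene of the list, at 407 ± 119 CPM in PBS tumors.

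Of 10 genes of myofibroblastic fibroblasts, 3 passed the unadjusted p and fold limits as higher, against 3.74% of all genes. These were Tnc (tenascin C) with a log2 fold change of 2.34, Lrrc15 with 2.08 and Cthrc1 with 1.86. The other 7 had groups that overlapped: Inhba with 1.04, and the contractile genes Tpm2 with 0.44, Cnn1 with 0.40, Acta2 (smooth muscle actin) with 0.36, Myl9 with 0.17, Tpm1 with 0.02 and Tagln with -0.07. The list median was 0.42. Of 10 genes of inflammatory fibroblasts 4 passed, Cxcl14 with 1.65, Il6 with 1.44, Dpt with 1.22 and Cxcl12 with 1.11, and the complement gene C3 had -0.42, for a median of 0.89. Of 7 genes of antigen-presenting fibroblasts, most of which antigen-presenting immune cells also express, 0 passed, and the median was 0.14.

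General fibroblast markers had a median log2 fold change of 1.21. Of 10 genes, 6 passed the unadjusted p and fold limits as higher, against 3.74% of all genes. Col1a1, Col1a2, Dcn and Lum among them are matrix genes already counted, and the highest estimate was that of Fbln2 (fibulin 2), 2.27. Vim with -0.39, Ddr2 with -0.10, Serpinf1 with 0.05 and Fbln1 with 0.23 did not pass. Vim encodes the mesenchymal intermediate filament vimentin, which cultured tumor cells also make, and stood at 1973 CPM in PBS tumors on average.

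**Figure D5:**
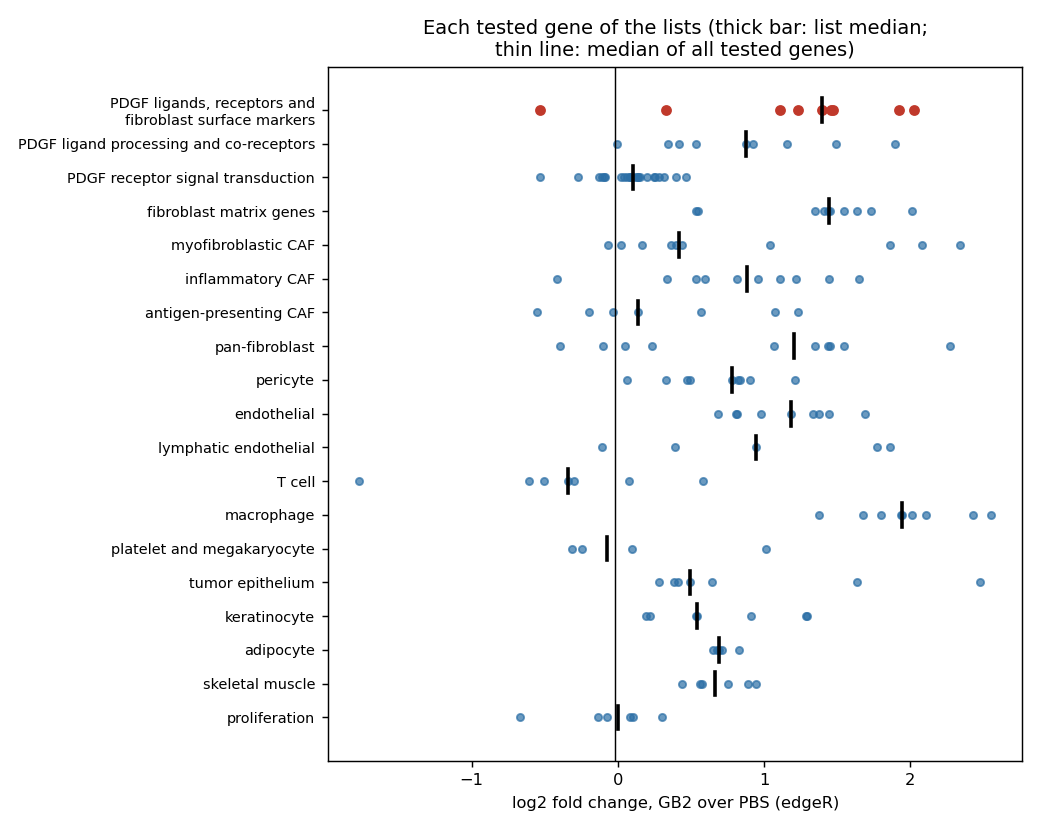
Log2 fold change (edgeR, x axis) of each tested gene of the pathway, fibroblast and cell type lists (blue points) and of the 9 genes (red points), with list medians as thick bars and the median of all tested genes, -0.016, as the thin line. The medians are 1.40 for the 9 genes, 1.45 for fibroblast matrix, 1.18 for endothelial, 1.95 for macrophage, 0.11 for signal transduction and -0.34 for T cell genes.

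Several other cell types are known to carry these genes, and their markers were read in the same tumors. Of 9 endothelial genes, whose cells are a source of Pdgfb, 9 had groups without overlap, against 8.61% of all genes. Past the unadjusted p and fold limits were 5, against 3.74%, and the list had a median log2 fold change of 1.18. The 9 genes summed to 56.0 to 66.3 CPM in PBS and 133 to 147 CPM in GB2 tumors, and Pecam1 had 1.34 and Kdr 1.44. Of 9 pericyte genes, whose cells carry Pdgfrb, 1 passed (Des, 1.21), 9 had positive estimates and 5 (Rgs5, Abcc9, Notch3, Des and Cd248) had groups without overlap, with a median of 0.78. Their sum overlapped, 164 to 387 CPM against 295 to 338 CPM, and most of it was Mcam, at 110, 173 and 307 CPM in PBS tumors. Rgs5, a pericyte marker, had a log2 fold change of 0.33.

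Macrophage genes, of a cell type that can make PDGFs and Pdpn, had the highest median of the lists. Of 9 genes, 9 passed the unadjusted p and fold limits as higher, against 3.74% of all genes. Their median was 1.95, and their summed level was 62.6 to 90.1 CPM in PBS and 253 to 357 CPM in GB2 tumors. Lyz2 had a log2 fold change of 2.11 and Adgre1 (F4/80) 2.55. Of the 5 lymphatic endothelial genes tested, 0 passed, 4 had positive estimates and the median was 0.95. Over the 6 genes listed the sum was 8.52 to 11.4 CPM in PBS and 14.3 to 17.4 CPM in GB2 tumors. Flt4, which encodes the receptor VEGFR3, had 0.95 with groups without overlap, Lyve1 had 1.86, Ccl21a 1.77, Reln 0.39 and Prox1, the transcription factor of this cell type, -0.11. Mmrn1 was below the filter. The part of these cells in the values of Pdgfb, Pdgfc, Pdgfrb and Pdpn was not tested.

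T cell genes, which bear on Thy1, were low and overlapped between the groups. Their summed level over 8 genes was 1.53 to 7.24 CPM in PBS and 2.75 to 7.31 CPM in GB2 tumors, 0 of the 7 tested passed, and the median log2 fold change was -0.34. Lck, the most abundant of them, had 0.58, Cd4 had 0.07 and Cd3e, the most negative, -1.77. The part of T cells in the values of Thy1 was not tested. Platelet genes, of cells that store PDGFs, summed over 5 genes to 2.77 to 6.53 CPM and 4.20 to 6.55 CPM, and 0 of the 4 tested passed.

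Markers of the skin and of other tissue around the tumor were read as well. Skeletal muscle genes summed to 91.1 to 154 CPM in PBS and 191 to 221 CPM in GB2 tumors, with a median log2 fold change of 0.66. Groups were without overlap in 4 of 6 genes, against 8.61% of all genes, and 0 of 6 were past the limits. Adipocyte genes, of a tissue rich in Pdgfra-bearing stroma, summed to 15.9 to 64.3 CPM and 57.6 to 79.8 CPM, with a median of 0.69 and 0 of 5 past the limits. Keratinocyte genes summed to 21.2 to 87.3 CPM and 68.9 to 121 CPM, with 1 of 7 past them (Trp63, 1.29). The part of such tissue in the values of Pdgfra, Fap, Thy1 and Pdpn was not tested.

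For each of the 9 genes, the genes with the most similar pattern were read as Pearson r in log2 CPM over the 6 tumors, among about 14245 genes of at least 1 CPM on average. The tumors fall into 2 treatment groups, so genes that differ between them in the same direction tend to have a high r, and the values are a description. Pdgfra was closest to Col5a1 (r = 0.995), a fibrillar collagen gene, and Cdh11 (r = 0.994), a mesenchymal cadherin. Pdgfrb was closest to Sorbs2 and Ldb2 (r = 0.995 and 0.994). Pdgfb was closest to Kctd12b (r = 0.999) and to Robo4 (r = 0.998), an endothelial receptor.

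Pdgfc was closest to Trem2 (r = 0.999) and to Ece1 (r = 0.996). Trem2 encodes the myeloid receptor that artesunate is meant to inhibit, and its own log2 fold change in RNA was 2.16. The paper reports lower TREM2 in GB2 tumors by immunohistochemistry, which measures protein and not RNA. Thy1 was closest to Slc8a1 and to Folr2, a macrophage folate receptor (r = 0.995 each), with log2 fold changes of 2.1 and 2.04. Fap was closest to 1810059H22Rik and Cacna2d1 (r = 0.997 and 0.996), and Pdpn to Fpgt and Mmp19 (r = 0.993 and 0.989). Pdgfa, which differed from the rest, was closest to the glycolytic gene Tpi1 (r = 0.998) and to Snrpd2 (r = 0.997), a splicing factor. Pdgfd was closest to Gm7901 and Gm17709 (r = 0.972 and 0.968).

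Among the 9 genes themselves, r over the 6 tumors was 0.979 for Pdgfb with Pdgfc, 0.971 for Pdgfra with Fap and 0.834 for Pdgfra with Pdgfrb. Pdgfa had r = -0.943 with Pdgfrb. Thy1 had r = 0.941 with Pdgfra and 0.692 with Pdgfrb. The same 6 libraries enter each value.

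Promoter sequence was read for 5 of the 9 genes, from RefSeq on GRCm38.p6, a build whose positions are not those of the deposited table. The last 150 bases before the RefSeq start site are shown, 5′ to 3′ on the gene's strand, for the 3 that were higher in GB2 tumors and for Pdgfd, which overlapped, with motif matches in capitals.
Pdgfra, chr5:75152101-75152250, plus strand: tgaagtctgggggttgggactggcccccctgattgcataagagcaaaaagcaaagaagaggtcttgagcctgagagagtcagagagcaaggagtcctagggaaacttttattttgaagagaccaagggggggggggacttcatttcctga
Pdgfc, chr3:81036266-81036415, plus strand: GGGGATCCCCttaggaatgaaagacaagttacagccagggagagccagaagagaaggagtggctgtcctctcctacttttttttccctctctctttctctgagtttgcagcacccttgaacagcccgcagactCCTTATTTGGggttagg
Pdpn, chr4:143299565-143299714, minus strand: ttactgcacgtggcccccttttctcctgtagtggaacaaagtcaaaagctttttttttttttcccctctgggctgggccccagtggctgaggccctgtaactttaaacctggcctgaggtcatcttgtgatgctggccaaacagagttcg
Pdgfd, chr9:6168336-6168485, plus strand: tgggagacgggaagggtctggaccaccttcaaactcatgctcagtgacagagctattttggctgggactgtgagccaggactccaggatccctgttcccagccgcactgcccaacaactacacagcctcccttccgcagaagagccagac

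Both strands of the 250 bases before the start site were searched for the GC box, spelled GGGCGG, the TATA box, spelled TATAAA, the AP-1 site, spelled TGANTCA, the NF-kappaB motif and the CArG box, the site of serum response factor. The Pdgfc window held an NF-kappaB match from base -150 and a CArG match from base -17, counted from the start site, which are held by 7.25% and 1.47% of the 32851 windows of this length. The windows of Pdgfra and Pdpn held none of the 5 motifs, and that of Pdgfd a TATAAA at -160, outside the bases shown, as 12.4% of windows do. GGGCGG was present in both windows of Pdgfa, as in 32.7% of all windows, and 1 of them also held an NF-kappaB match, from base -49. The Pdgfa windows had a GC content of 66.4% and 72.4%, against 43.2% for Pdpn, 50.8% for Pdgfc, 53.6% for Pdgfd and 54.4% for Pdgfra. A match is a description of the letters and not of a bound site, and no match says only that the letters are not in this window.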

How the data were processed

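Poly-A RNA of 6 MC38 tumors (3 PBS, 3 GB2) was sequenced. The authors deposited 1 table with an estimated count per gene and tumor, in whole numbers with no scaling between tumors. The FPKM the authors deposited are per transcript length and library size. The submitters' processing notes name cutadapt 1.9, HISAT2 2.2.1, StringTie 2.1.6, DESeq2, edgeR and mm10, with no roles. Start and end matched a GRCm38 annotation for 595 of 31999 shared gene IDs (1.86%), and positions are therefore printed as the table has them. Low counts pile up at multiples of 4. All per-sample columns were used.

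Counts were tested with edgeR 4.0.16 in R 4.3.3: filterByExpr with a minimum count of 10, TMM factors (0.914 to 1.04), glmQLFit and glmQLFTest, and Benjamini-Hochberg adjustment over 19602 genes. The filter uses the counts of either group, so a gene high in 1 group can pass through it. The biological coefficient of variation was 40.5%. The SE of an edgeR log2 fold change was derived from the test, as its absolute value over the square root of the quasi-likelihood F. Calls needed a fold of at least 2 and an adjusted p under 0.05. Log2 CPM used a prior count of 2. An exact permutation test over tumors, two-sided, served for ratios and single genes (scipy 1.17.1). DESeq2 1.42.0 and limma 3.58.1 on log2 FPKM were alternatives, with other scalings, filters and left-out tumors. The fits were tested on simulated data. The genes and lists were chosen with earlier results of these data known. Named genes are the 9, 2 to 5 per list by smallest p or highest level, with further list genes named after their values were seen, and the 2 nearest genes of each.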

Additional observations from a re-analysis of the deposited data

How the results depend on the processing

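Each of the 9 genes was refitted under 16 alternatives, and 143 of 144 log2 fold changes kept their sign. The exception is Pdgfd, without GB2 tumor 3. The number of the 9 genes called was 0 in 15 alternatives and 6 with DESeq2, which called 385 genes in all where edgeR and limma called 0, and the cause was not tested. The 7 genes past the unadjusted p and fold limits became 2 (Thy1 and Pdpn) with limma on log2(FPKM + 1), with and without the filter. This scale understates differences of genes at a low FPKM, and with log2(FPKM + 0.1) the number was 6, Pdgfc being outside. Leaving out 1 tumor gave 6 to 7, and Pdgfrb was the gene lost when either tumor numbered 1 was left out. Over these fits the log2 fold change ranged from -0.71 to -0.13 for Pdgfa and from -0.0029 to 0.72 for Pdgfd. The difference of Pdgfc to Pdgfb of 0.21 turned to -0.29 on log2(FPKM + 0.1), a pseudocount above the mean Pdgfc level in PBS tumors, and was 0.25 (exact permutation p = 0.1) with none, an alternative chosen after seeing the data. Same-numbered tumors did not deviate together (r = 0.0313, 0.154 and -0.245), so the numbers were not used as pairs, and a fit with a replicate block left 7 genes past the unadjusted limits and 0 called. A block leaves the receptor difference at 0.67 by construction, since each number occurs once in each group. Its exact permutation p within pairs was 0.5, and with so few pairs this p cannot be small. The median of all genes ran from -0.036 to 0.058 over the fits. Fap and Pdgfc had 19 to 44 counts in PBS tumors, and with counts divided by 4 their log2 fold changes were 1.98 and 1.43.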

Other observations

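The tumor that was highest or lowest in its group differed between the 9 genes. GB2 tumor 2 was the lowest of its group for Pdgfb, Pdgfd, Pdgfra, Fap and Thy1 (5 genes), and GB2 tumor 3 was the highest for Pdgfa, Pdgfc, Pdgfd, Pdgfra and Fap (5 genes) but the lowest for Pdgfrb and Pdpn. PBS tumor 1 was the lowest for Pdgfb, Pdgfc, Pdgfra and Pdgfrb (4 genes) and the highest for Pdgfa and Pdgfd. Proliferation genes, which follow the cell cycle of tumor and stromal cells alike, had a median log2 fold change of 0.0045 over 6 genes, with 0.08 for Mki67.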
